A study of Mus musculus with 12 samples.

Results

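Shared intergenic peaks are stretches of open chromatin that lie away from genes and were found both in wild-type (WT) mouse myoblasts and in myoblasts that lack Runx1 (KO). Among the shared peaks they were chosen by position alone. A peak of the shared list was taken when its centre lay outside every annotated gene and more than 1 kb from every gene end, and 5874 of the 24800 shared peaks met this rule (23.7%, exact Clopper-Pearson 95% interval 23.2% to 24.2%, which covers counting error only). They covered 2.44 Mb and made up 67.1% of the 8755 WT peaks that met the same rule. No measure of peak strength entered this step, but the shared list itself holds only peaks called in both genotypes.

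The data came from ATAC-seq, in which the Tn5 transposase cuts open DNA in isolated nuclei so that fragments accumulate at accessible sites. The cells were C2C12, an established myoblast line that proliferates in serum and forms myotubes once serum is reduced. The WT group consisted of C2C12 controls and the KO group of C2C12 Runx1KO cells, both harvested at day 0, just before confluence, from growth medium that held 20% fetal bovine serum. The study has 3 samples of each genotype in this medium and 3 of each at day 2 of differentiation medium, 12 in all. The day 2 samples were not analysed here. Whether the knockout cells were 1 clone is not given in the sources used here.

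Open chromatin far from genes is where many enhancers lie. Enhancers are short regions that bind transcription factors and act on promoters over a distance, and they carry much of what makes one cell type differ from another. RUNX1 binds DNA together with its partner CBFB and in proliferating myoblasts shares many sites with AP-1 and myogenic factors. Its own gene has a distal and a proximal promoter and is itself under the control of remote enhancers.

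Each shared peak carried 2 measurements per genotype, both the authors' own: a fold enrichment of the peak over background, and a −log10 q, which grows as the evidence for the peak grows. By the names of the peaks, all values came from the replicate 1 library of each genotype. Whether the other replicates entered the choice of the listed peaks is not given in the sources used here. There was thus no replicate error, no p-value is given, and every comparison is between 2 libraries and not between genotypes. The sequencing depth was unknown. Of 6 myoblast markers, Myod1, Des and Pax7 were the nearest protein-coding gene of 6 shared intergenic peaks, and Myf5 and Msc had no shared peak in or within 1 kb of the gene and none assigned. The 6 hepatocyte markers had none, while 2 of 6 adipocyte markers (Pparg and Cebpa) had 2, 2 of 6 neuronal markers (Neurod1 and Stmn2) had 4 and 1 of 6 blood and endothelial markers (Ptprc) had 4.

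The letters of the peaks themselves were not used here, so the sequences shown are those of genes beside them. For 49 shared intergenic peaks the nearest gene was a microRNA gene, with 33 such genes in all. The mature microRNAs printed here belong to loci that are well known in muscle and growth control or that lie next to the cluster on chromosome 8 described further on, and they were chosen after the peak values were seen. RefSeq (GRCm38.p6) gave a sequence for 30 of the 33 genes. Capitals mark the seed, bases 2 to 8, which pairs with target messages.
mmu-miR-23a-3p: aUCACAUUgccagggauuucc
mmu-miR-27a-3p: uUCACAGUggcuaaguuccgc
mmu-miR-24-3p: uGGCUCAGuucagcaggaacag
mmu-miR-181c-5p: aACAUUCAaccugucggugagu
mmu-miR-29a-3p: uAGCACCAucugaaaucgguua
mmu-miR-29b-3p: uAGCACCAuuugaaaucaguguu
mmu-let-7a-5p: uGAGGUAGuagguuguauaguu
mmu-miR-17-5p: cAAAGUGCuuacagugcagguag
The miR-29a and miR-29b arms carried the same seed, AGCACCA, and their genes lie side by side on chromosome 6, with 1 shared intergenic peak nearest to Mir29a and 2 nearest to Mir29b-1. The miR-23a and miR-27a seeds differed, as did those of the other arms shown.

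The 3 peaks at the miR-29 locus were present in both genotypes with like values. At chr6:31058901-31059389, 3.51 kb from Mir29a, the WT fold was 10.5 (−log10 q 34.8) and the KO fold 9.11 (27.4). At chr6:31070675-31070937 the folds were 6.32 in WT and 6.67 in KO, and at chr6:31075542-31076055 they were 7.16 and 8.16. miR-29 is known to restrain collagen genes.

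At the Mir17 locus, whose cluster promotes proliferation, 2 peaks stood before the hairpins. The one at chr14:115040674-115041027 had a fold of 12.1 in WT and 5.83 in KO, and its −log10 q was 30.2 in WT and 9.64 in KO. The other, at chr14:115042120-115042509 and 1.36 kb from the gene, had folds of 6.27 and 5.21. Next to Mirlet7a-1 the stronger of 2 peaks, chr13:48546420-48546835, had a fold of 13.9 in WT and 9.03 in KO. Mir30d had a strong peak 22.1 kb away with folds of 20.9 and 18.3, and a weaker one 1.37 kb away that went the other way, from 7.0 in WT to 12.2 in KO.

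In strength, shared intergenic peaks sat slightly below the shared peaks at gene ends and level with those in gene bodies. The median WT fold was 10.1 for the intergenic peaks, 11.3 at gene ends (8649 peaks within 1 kb of an end) and 9.97 in gene bodies (10277 peaks). The median WT −log10 q was 19.1, 24.4 and 20.0 in the same order. Intergenic peaks were also narrower than those at gene ends, with a median width of 379 bp against 502 bp.

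The specific lists of the 2 genotypes also held intergenic peaks. A peak had to be called in both libraries to be shared, which by itself favours strong peaks, so the values are a description only. The 2881 intergenic peaks of the WT-specific list had a median fold of 6.61, a −log10 q of 8.42 and a width of 243 bp. The 953 of the KO-specific list had 6.67, 8.67 and 261 bp. The shared peaks spanned a wide range all the same, with WT folds from 2.62 to 43.6 and −log10 q from 1.81 to 349.

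On the KO side, 5854 of the peaks overlapped 1 KO peak and 20 overlapped 2, of which the one with the longest overlap was used. The KO partners had a median fold of 9.02, a −log10 q of 17.6 and a width of 399 bp. The position of the highest signal was nearly the same in both libraries, with the summits a median of 31 bp apart and within 100 bp in 87.8% of peaks. In 88.8% of pairs the overlap covered at least 50% of both peaks. For 123 peaks the KO partner also overlapped another WT peak, so their KO value is not theirs alone.

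The order of the peaks by strength was broadly kept. Spearman's rho between WT and KO fold was 0.696 over the 5874 pairs, given as a description of peaks that share 2 libraries. It was 0.831 at gene ends and 0.722 in gene bodies. The intergenic pairs thus scattered more around the common trend than the pairs at gene ends.

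To compare the libraries peak by peak, the KO fold was divided by the WT fold and then by 0.872, the median of this quotient over all 24800 shared pairs. A relative ratio of 1 therefore means that a peak followed the bulk, and a ratio of at least 1.5 in either direction was counted. The KO fold was higher by this measure at 463 intergenic peaks (7.88%, interval 7.21% to 8.60%), beside 6.22% of all shared peaks. It was lower at 272 (4.63%, interval 4.11% to 5.20%), beside 3.88% of all shared peaks. Gene ends had 3.94% higher and 2.35% lower, and gene bodies 7.18% and 4.73%. Of the 49 peaks beside microRNA genes 3 were higher (6.12%) and 4 lower (8.16%), counts too small to set them apart from these shares.

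**Figure D1:**
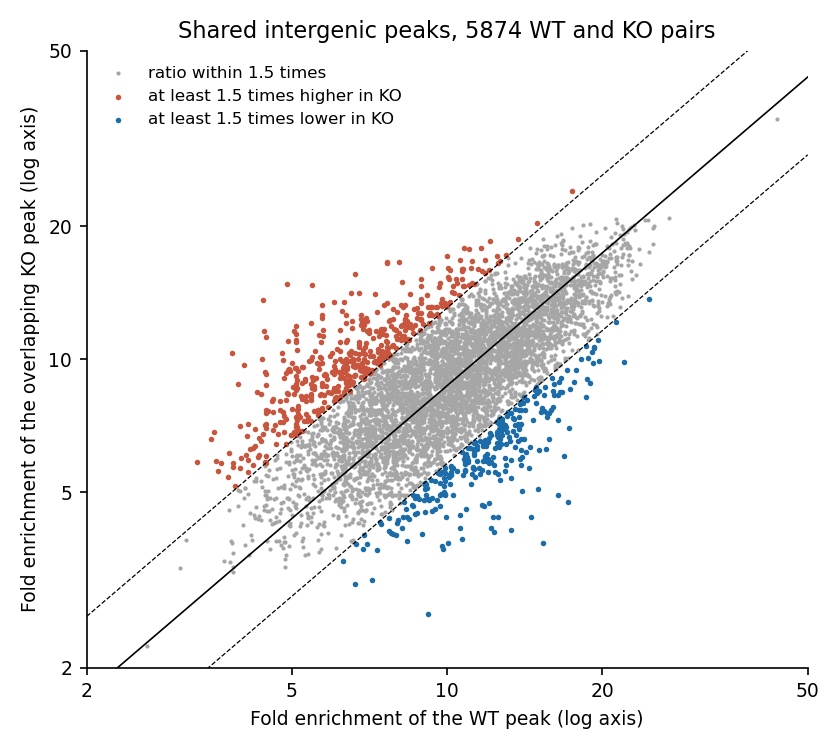
Fold enrichment of each shared intergenic peak in the WT library (horizontal, log axis) and of its overlapping KO peak (vertical, log axis), 1 point per pair. The solid line is the median quotient of all shared pairs, the dashed lines mark 1.5 times either way, and the 463 red and 272 blue points lie past them, the red ones mostly at low WT fold and the blue ones mostly at higher WT fold.

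Most of the higher calls came from peaks that were weak in WT. Split at the quartiles of WT fold, 23.5% of the weakest set were higher in KO and 0.816% lower, and of the strongest set 0.272% were higher and 6.81% lower. The median ratio went from 1.22 to 0.917 across these sets. When the same peaks were ordered by KO fold the trend turned round, from 0.905 in the weakest set to 1.08 in the strongest. The fold that defines the sets also enters the ratio, so neither trend says anything about the genotypes.

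In the 3493 peaks whose −log10 q reached the median of the whole WT list, a subset without the weakest peaks, 1.20% were higher in KO and 6.33% lower. The larger share of higher calls over all peaks was thus reversed in this subset. Both directions were chosen on the WT value.

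The 5 peaks of this stronger subset with the lowest relative ratios are too few to read as a group. A lncRNA was the nearest gene of 4, beside 37.4% of all shared intergenic peaks. None was assigned to a gene of the 7 lists described further on, to which 236 of the 5874 were assigned. The lowest was chr17:14036938-14037274, 13.0 kb from Gm34107, with a fold of 15.4 in WT and 3.84 in KO. Next came chr14:75807747-75808133, 20.9 kb upstream of Slc25a30, a mitochondrial carrier, with folds of 17.2 and 4.76. Then chr15:85679120-85679752, lay 55.5 kb upstream of Ppara, a receptor that controls fatty acid oxidation, and fell from 9.19 to 2.64. It overlapped 2 KO peaks, and the WT and KO summits compared were 518 bp apart. The others were chr3:149731925-149732282, 743 kb from Adgrl2 (folds 16.4 and 4.94), and chr4:81003579-81003869, 49.4 kb from Lurap1l (14.5 and 4.39).

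At the other end stood chr12:98282836-98283059, 6.23 kb downstream of Gpr65, a proton-sensing receptor, with a fold of 8.07 in WT and 16.6 in KO. Its KO partner was 1034 bp wide, overlapped a second WT peak and had its summit 805 bp away, so the pair may not compare the same site. The peak near Irx6, a homeobox gene (chr8:92706447-92706592), had folds of 9.35 and 16.1 with summits 19 bp apart. The peak chr3:119955723-119956330, nearest to the splicing regulator Ptbp2 at 171 kb, had 9.97 and 17.1. The last were chr18:87091768-87092095, 374 kb from Cbln2 (10.8 and 17.9), and chr1:39895128-39895566, 5.55 kb from Map4k4, a kinase of stress signalling (11.0 and 17.8).

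Distance to the nearest gene set off a small group of peaks. The median distance to any gene end was 11.9 kb, with 44.6% of the peaks within 10 kb, and 224 peaks lay over 100 kb from every gene. The farthest 5 were 4 peaks of 1 gene-poor stretch of chromosome 3 and 1 of chromosome 1. The farthest, chr3:42590223-42590581, was 612 kb from the pseudogene Gm7899 with a fold of 11.5 in WT and 8.47 in KO. Its neighbour chr3:42589583-42589854 shared the same KO peak and had a WT fold of 6.83. The strongest of the 5, chr3:42753161-42753438, had folds of 21.3 and 16.7. The remaining pair were chr3:42661946-42662299 (17.0 and 12.2) and chr1:145940309-145940496 (10.3 and 8.20).

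The 224 peaks over 100 kb from any gene were higher in KO more often than the rest. Of them, 38 passed the ratio upwards (17.0%, interval 12.3% to 22.5%), beside 425 of the 5650 nearer peaks (7.52%, interval 6.85% to 8.24%). Passing downwards were 7 of the far peaks (3.13%) and 4.69% of the near ones. The median ratio was 1.12 for the far and 1.01 for the near peaks. The median WT fold was 10.6 for the far and 10.1 for the near peaks, the −log10 q 17.3 and 19.1, and the width 348.5 and 381 bp. Whether these differences bear on the share was not tested.

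The share was higher for the far peaks in each set of WT fold. Below the lowest quartile of fold 26 of 53 far peaks (49.1%) were higher in KO, against 320 of 1418 near ones (22.6%). Between that quartile and the median the shares were 15.7% of 51 and 5.16% of 1415. Of the 59 and 61 far peaks in the upper sets only 2 each were higher, so little can be read there. The 38 peaks lay on 17 chromosomes, with at most 7 on one (chromosome 15), and the share stayed between 15.6% and 18.5% when any single chromosome was left out. Among the nearer bins the share ranged from 6.65% at 1 to 2 kb to 8.73% at 50 to 100 kb, so it did not climb evenly with distance. Whether the difference comes from the genotype or from these 2 libraries cannot be told apart. The contrast was noticed in these data and has no test.

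**Figure D2:**
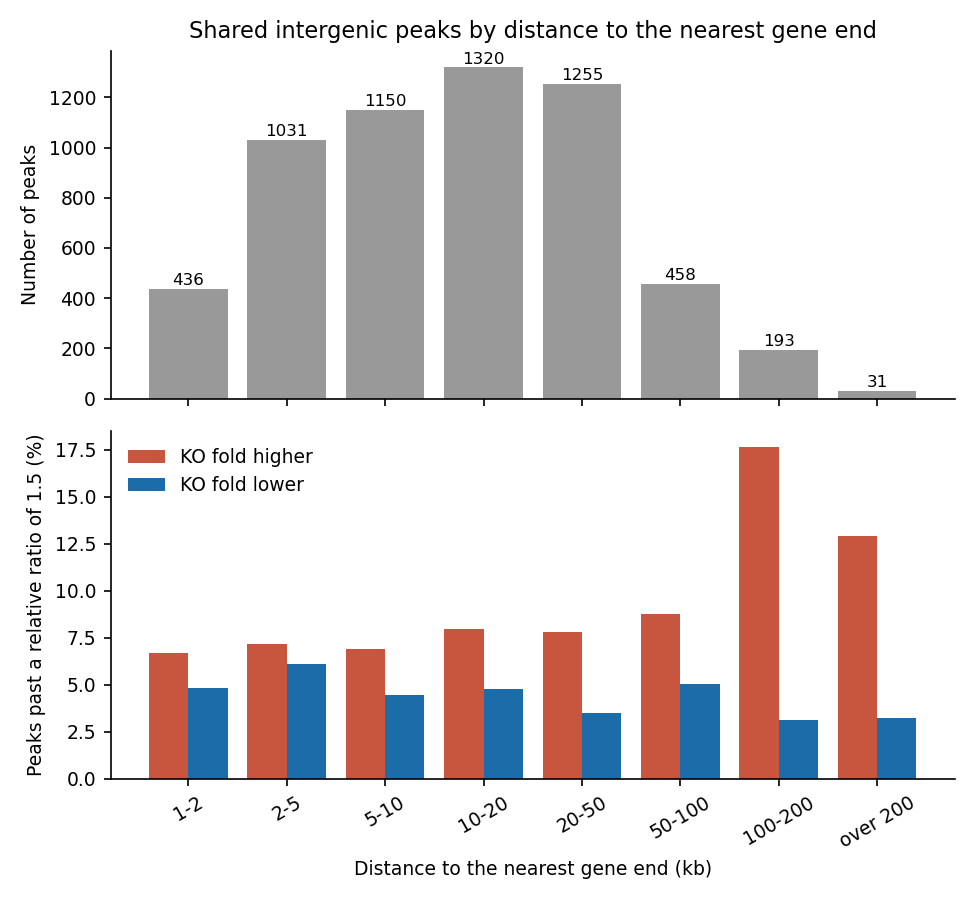
Number of shared intergenic peaks by distance to the nearest gene end in kb (top) and the percentage of each bin past a relative ratio of 1.5 (bottom, red for KO higher and blue for KO lower). The 193 peaks at 100 to 200 kb reached 17.6% higher in KO, against 6.65% to 8.73% in the nearer bins, and the bin over 200 kb held 31 peaks, 4 of them higher.

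Of the genotype-specific peaks, those of WT lay about as far from genes as the shared ones. The WT-specific intergenic peaks had a median distance of 11.2 kb, with 4.17% over 100 kb, against 3.81% of the shared ones. The KO-specific ones lay farther out, at 16.6 kb and 6.72%. Just inside the 1 kb limit of the rule lay 3 peaks at 1001.5, 1002.5 and 1002.5 bp with WT folds of 6.19, 9.57 and 8.74, and just outside it 3 at 998, 997.5 and 994.5 bp with 16.0, 8.13 and 5.6.

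The nearest gene was protein-coding for 2388 peaks (40.7%), a lncRNA for 2194 (37.4%) and a pseudogene for 939 (16.0%). Measured to protein-coding genes alone, the median distance rose to 29.9 kb. Strand was known for the nearest protein-coding gene of 4451 peaks, and 53.7% of these lay upstream and 46.3% downstream. The upstream and downstream peaks had like strength, with median folds of 9.92 and 10.3.

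The shared intergenic peaks with the highest −log10 q were found on 3 chromosomes. Of the 10 with the highest WT −log10 q, 5 were on chromosome 15, 4 on chromosome 8 and 1 on chromosome 3. The first by far was chr3:35225043-35225559, 31.2 kb from the lncRNA 1700017M07Rik and 529 kb upstream of Atp11b, with a fold of 43.6 and a −log10 q of 349 in WT and 34.9 and 280 in KO. It was first in both libraries, and its summits were 2 bp apart.

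The nearest protein-coding genes of the others of the 10 had varied roles. The chromosome 8 peaks included chr8:79208651-79209267 beside 1700011L22Rik (fold 20.3 in WT and 16.3 in KO) and chr8:83278288-83278834 beside Tbc1d9 (22.8 and 19.9). The rest there were chr8:87070991-87071575, 186 kb from N4bp1 (21.9 and 20.1), and chr8:54548274-54548948, 1.72 kb upstream of Asb5 (20.4 and 12.5). Asb5 is a muscle gene of the ankyrin repeat family. On chromosome 15 lay chr15:25494673-25495126, 81.1 kb from Basp1 (24.5 and 20.7), and chr15:33906654-33907498, 175 kb from Gm41291 (22.5 and 19.8). A further one, chr15:97914144-97914772, was 6.16 kb upstream of Vdr, the vitamin D receptor (20.3 and 16.5). The last were chr15:73434818-73435374, 11.3 kb from Ptk2, the focal adhesion kinase (20.7 and 15.1), and chr15:7862720-7863613, 9.89 kb from Wdr70 (17.3 and 12.9). The relative ratio lay between 0.701 (the Asb5 peak) and 1.05 for all 10, and none passed 1.5.

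Chromosomes 8 and 15 together held 11.8% of the shared intergenic peaks and 35 of the 100 with the highest WT −log10 q, 12 on chromosome 8 and 23 on chromosome 15. The count was 42 of 100 by KO −log10 q and 24 of 100 by WT fold. The shared peaks in or near genes showed it as well, with 54 of their 100 highest on these chromosomes, which held 11.8% of them. Copy number was not measured here.

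Shared intergenic peaks took between 17.7% (chromosome 7) and 29.7% (chromosome 3) of the shared peaks of a chromosome. The median WT −log10 q was highest on chromosome 15 (22.0) and lowest on X (15.6). Chromosome 15 was also the highest by KO values, at 20.4. On X and chromosome 3 the KO median (15.6 and 19.1) was at or above that of WT (15.6 and 18.4), while on the other 18 chromosomes it was lower.

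**Figure D3:**
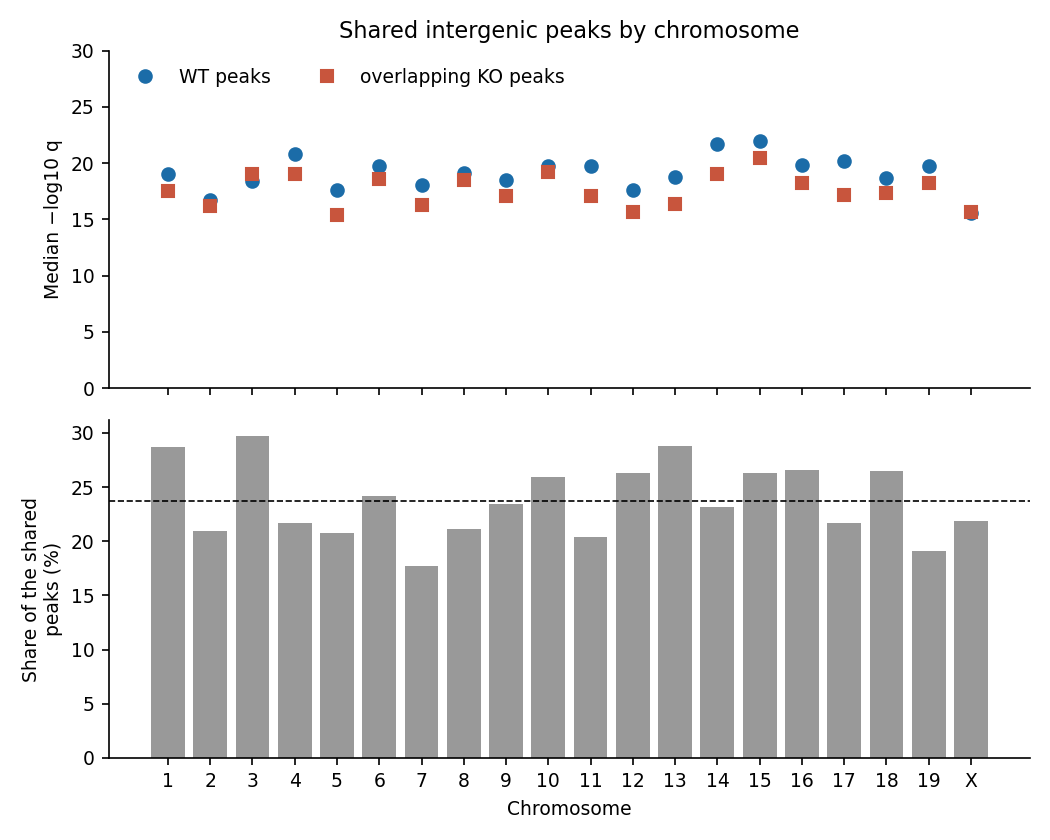
Median −log10 q of the shared intergenic peaks of each chromosome in WT (circles) and of their KO partners (squares), above the percentage of all shared peaks of the chromosome that were intergenic, with the dashed line at 23.7%. Chromosome 15 is highest in both libraries (22.0 and 20.4), and the share runs from 17.7% on chromosome 7 to 29.7% on chromosome 3.

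Peaks stood alone about as often as in groups. Another shared intergenic peak lay within 10 kb of 31.2% of them, a WT-specific peak within 10 kb of 17.7% and a KO-specific peak within 10 kb of 4.66%. No other peak of either list lay that near to 2773 (47.2%). The isolated peaks were past the ratio more often, with 9.70% higher and 5.66% lower in KO against 6.26% and 3.71% of the 3101 with a neighbour. Their median WT fold was 10.6, against 9.67, but their median WT −log10 q was lower, at 18.4 against 19.7. They also lay farther from gene ends, at a median of 14.4 kb against 9.87 kb. Whether these differences bear on the calls was not tested.

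Joining peaks up to 10 kb apart gave 804 clusters of at least 2, of which the largest 5 held 6 peaks each. How many of the other clusters contained a peak specific to either genotype is not given here. None of the 5 spans did. They began with chr10:93932920-93946581, 15.3 to 28.4 kb from Vezt, an adherens junction gene. Next were chr11:19834753-19850018, 74.7 to 89.6 kb from Spred2, an inhibitor of Ras signalling, and chr15:64496660-64520974, 114 to 138 kb from Asap1, which regulates Arf GTPases at focal adhesions. The remaining ones were chr4:55718611-55734663, 186 to 202 kb from Klf4, a zinc finger factor of growth arrest, and chr8:84186525-84204229 between Mir181c and Mir23a.

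In the first 4 clusters WT folds ran from 4.23 to 11.9, and the relative ratios were scattered around 1, with medians of 1.05, 1.07, 1.04 and 1.12. The Spred2 cluster had 1 peak at a ratio of 1.90 and the Klf4 cluster 1 at 1.73. The cluster on chromosome 8 differed in kind. Its 6 peaks had WT folds of 5.0, 11.4, 7.88, 2.62, 5.84 and 7.26 along the chromosome, yet −log10 q of 10.1, 67.6, 102, 10.8, 66.6 and 80.7. The peak with the fold of 2.62 (chr8:84201490-84201835) had the lowest fold of all 5874. The one at chr8:84197328-84198699 ranked 27th by −log10 q and 4305th by fold, and 3 of the only 4 peaks with a −log10 q of at least 60 and a fold under 9 were in this cluster.

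The KO library showed the same shape there. The KO folds were 5.22, 10.4, 6.39, 2.24, 6.29 and 6.29, the last 2 from 1 KO peak, with −log10 q of 16.1, 72.6, 77.3, 7.22, 72.0 and 72.0. The relative ratios ran from 0.930 to 1.23. The nearest hairpins were Mir23a, 4.79 to 10.5 kb from 4 of the peaks, and Mir181c, and the mature miR-23a, miR-27a, miR-24 and miR-181c sequences are those printed above.

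The 1 Mb windows with the most shared intergenic peaks were on chromosome 17 at 79 to 80 Mb, with 19 around Cyp1b1, Cdc42ep3 and Atl2, and on chromosome 15 at 62 to 63 Mb, with 17 assigned to Myc and Gsdmc. Another 4 windows had 16 each, around Vezt and Elk3, Tsc22d1, Fbln2 and Irf2bp2. The 19 peaks of chromosome 17 had a median ratio of 0.884, and the Vezt window had 1.13.

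Of all protein-coding genes, Myc and Runx1 were the nearest to the most shared intergenic peaks. Myc, a driver of proliferation, had 22, and Runx1 itself had 15. Gadd45g, a growth arrest gene, Irf2bp2, a corepressor, Pgrmc2, a haem-binding membrane protein, and Rasgrp1, an activator of Ras, had 12 each. Gsdmc and the zinc finger factor Klf6 had 11. Asap1, Cited2 (a CBP and p300 cofactor), Has2 (a hyaluronan synthase), Kirrel3 (an adhesion molecule), Sox9 (a skeletal progenitor factor), Tle3 (a Groucho corepressor that RUNX proteins bind) and Tns3 (a tensin of focal adhesions) had 10 each.

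Part of such a count is the room a gene has. The intergenic sequence for which a gene is the nearest protein-coding one, here called its territory, was 1102 kb for Myc and 370.1 kb for Runx1. Per Mb of territory Myc had 20.0 peaks and Runx1 40.5, beside 4.50 over all genes. Asap1 was densest of these 15 genes at 89.3 per Mb and Cited2 the least dense at 8.53. The 15 genes were picked for their many peaks, so densities above the value for all genes follow in part from the choice.

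The gene removed in the KO line kept all 15 of its neighbouring peaks by the choice of the list, and their values could be compared. The gene spans chr16:92601466-92826074 on the minus strand, and 14 of the 15 peaks lay upstream, from 2.16 to 357 kb. WT folds ranged from 4.96 to 19.2 with a median of 10.5, and KO folds from 5.08 to 17.3 with a median of 9.63. The relative ratio ranged from 0.689 to 1.58 with a median of 1.03. Of the 15 peaks 1 passed 1.5 upwards, too few to read against the 7.88% of all shared intergenic peaks. The strongest was chr16:93006558-93006999, 181 kb upstream, with folds of 19.2 and 17.3 and −log10 q of 50.8 and 46.4. Next came chr16:93106851-93107621, 281 kb upstream, with folds of 14.9 and 10.8 and −log10 q of 49.6 and 30.1. The one past 1.5 was the farthest, chr16:93182635-93183093, at 5.10 in WT and 7.02 in KO. The lowest ratio was at chr16:92963583-92964029, with folds of 10.7 and 6.40.

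The upstream sequences of the Runx1 promoters are shown because the knocked-out gene stands among these peaks and the lists differ at its start sites. Each run is the 250 bases before a start, 5′ to 3′ on the minus strand, from RefSeq GRCm38.p6, at chr16:92826075-92826324 for the distal and chr16:92697330-92697579 for the proximal promoter. Capitals mark matches on either strand to TGTGGT (RUNX), TGANTCA (AP-1), CCGGAA (ETS) or GGAATG (TEAD).
Runx1 distal promoter: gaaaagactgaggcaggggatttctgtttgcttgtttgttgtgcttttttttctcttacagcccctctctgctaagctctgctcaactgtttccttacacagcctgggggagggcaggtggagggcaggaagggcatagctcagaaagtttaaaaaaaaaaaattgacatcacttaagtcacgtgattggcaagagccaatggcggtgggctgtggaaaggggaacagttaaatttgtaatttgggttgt
Runx1 proximal promoter: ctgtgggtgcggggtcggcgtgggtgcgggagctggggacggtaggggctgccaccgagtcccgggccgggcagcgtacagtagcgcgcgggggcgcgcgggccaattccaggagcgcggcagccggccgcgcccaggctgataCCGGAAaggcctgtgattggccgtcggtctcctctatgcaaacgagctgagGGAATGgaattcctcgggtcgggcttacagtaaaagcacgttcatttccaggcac
The distal run held no match, and the proximal run held 1 to CCGGAA and 1 to GGAATG, which do not overlap. Over the 32851 promoters of the table, 250 bases before the start held TGTGGT in 14.0%, TGANTCA in 6.75%, CCGGAA in 12% and GGAATG in 12.6%. A match is a string of letters and not a site.

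At the distal start the shared list had a peak (chr16:92825830-92826223) with a fold of 6.46 in WT and 5.40 in KO. At the proximal start only the WT-specific list had one (chr16:92697264-92697499), with a fold of 6.0 and a −log10 q of 11.2. Both are weaker than the median of the intergenic peaks beside the gene. The deleted part of the gene is not given in the sources used here, and these peaks do not test the knockout.

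Around Myc the peaks reached past the neighbouring lncRNA gene Pvt1, a region known for enhancers of Myc. Peaks inside Pvt1 are left out by the rule, so those on its side lay before or beyond it. They lay 8.74 to 708 kb from the gene, and 17 of the 22 lay past Myc and on the Pvt1 side. WT folds ranged from 4.92 to 25 with a median of 11.7, and KO folds from 5.98 to 19.9 with a median of 10.9. The nearest, chr15:61998801-61999403, had folds of 11.6 and 13.1. The strongest was also the farthest, chr15:62698527-62699080, with 25 and 19.9 and −log10 q of 106 and 78.3. The ratio ran from 0.672 (chr15:62261539-62261937) to 2.21 (chr15:62483678-62483862), with a median of 0.971. Of the 22 peaks 2 passed 1.5 upwards, too few to read against the 7.88% of all shared intergenic peaks.

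**Figure D4:**
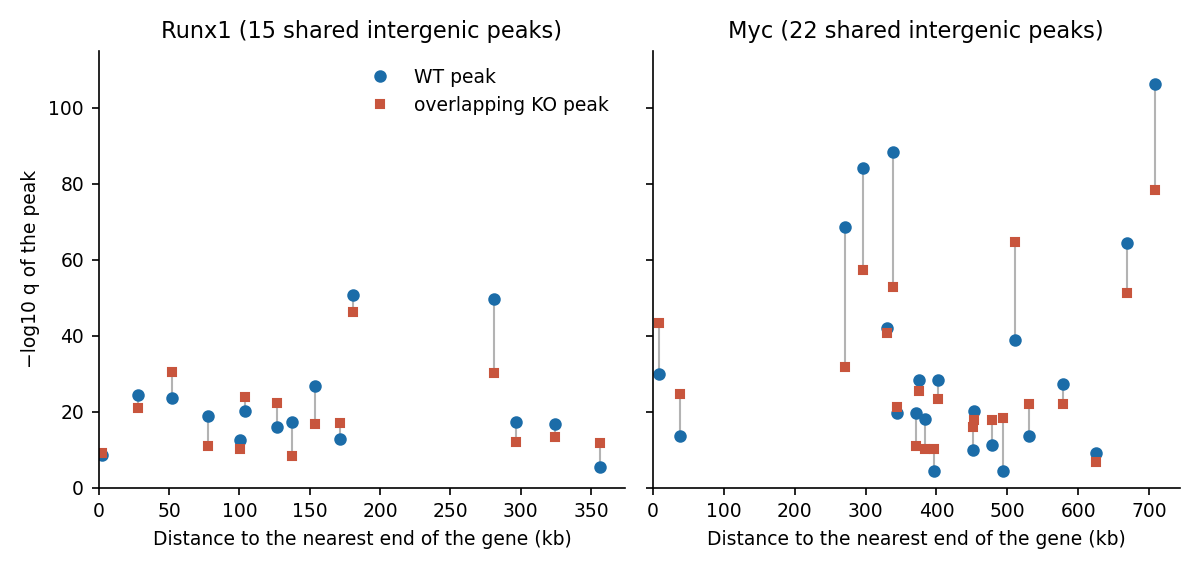
−log10 q of each shared intergenic peak in WT (circles) and of its KO partner (squares) against distance in kb to the nearest end of Runx1 (left, 15 peaks) and Myc (right, 22 peaks), with a grey line joining each pair. At Runx1 the highest WT value is 50.8 at 181 kb, and at Myc it is 106 at 708 kb.

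In all, 7 lists of genes were used to see which kinds of gene had shared intergenic peaks beside them, against 3253 of 21631 protein-coding genes (15%) that were nearest to at least 1. The share was 21 of 26 for matrix and adhesion genes, 13 of 22 for AP-1 and TEAD-YAP, 12 of 21 for RUNX and ETS factors, 13 of 23 for myogenic regulators, 15 of 31 for growth factor signalling, 5 of 15 for the cell cycle and 2 of 25 for sarcomere and calcium handling genes. These genes were chosen for their part in muscle cells, with earlier results of these data known.

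Territory differed between the lists too. Its median was 76.8 kb for matrix and adhesion genes, 7.20 kb for sarcomere genes and 13.4 kb for all protein-coding genes. Per Mb of territory, AP-1 and TEAD-YAP genes had the most peaks at 27.0, then growth factor signalling at 13.3, matrix and adhesion at 12.2, RUNX and ETS at 11.2, the cell cycle at 9.89, sarcomere genes at 9.58 and myogenic regulators at 9.52. All 7 values were above the 4.50 of all genes. The low number of sarcomere genes with a peak thus went with little intergenic sequence, and their rate rests on 3 peaks.

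**Figure D5:**
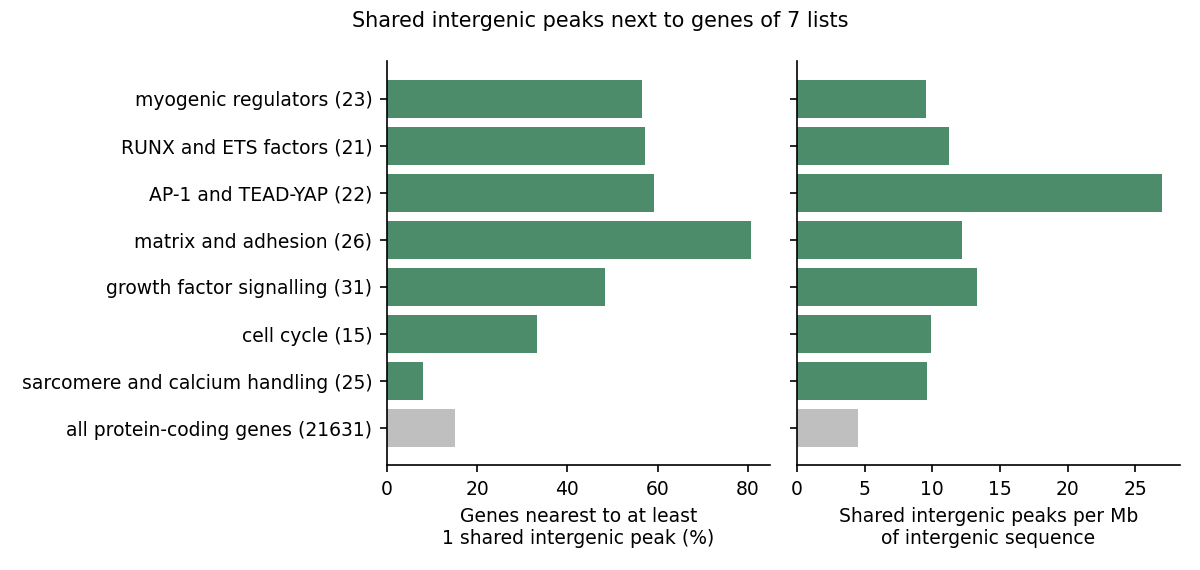
Percentage of the genes of each list that were the nearest protein-coding gene of at least 1 shared intergenic peak (left) and number of such peaks per Mb of the intergenic sequence nearest to the genes of the list (right), with the number of genes in brackets and all protein-coding genes in grey. Matrix and adhesion genes lead on the left with 80.8%, AP-1 and TEAD-YAP genes on the right with 27.0 per Mb, and all genes stand at 15% and 4.50.

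Ratios between the libraries were near 1 in every list. The median was 0.958 for the 33 peaks of myogenic regulators, 1.05 for the 46 of RUNX and ETS factors, 0.991 for the 23 of AP-1 and TEAD-YAP, 1.04 for the 57 of matrix and adhesion genes, 0.986 for the 41 of growth factor signalling, 0.962 for the 33 of the cell cycle and 1.05 for the 3 of sarcomere genes, beside 1.01 over all 5874. Of the 236 peaks assigned to the 7 lists, 17 passed 1.5 upwards (7.20%) and 10 downwards (4.24%), close to the 7.88% and 4.63% of all shared intergenic peaks. The pooled shares do not hold for each list. RUNX and ETS factors had the most upward calls, 6 of 46 peaks with 1 downwards, counts too small to set the list apart.

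Among myogenic regulators, Eya1, a coactivator in muscle precursors, had 5 peaks, Id2 and Tcf4 had 4, and Id3, Mef2a and Myod1 were among those with 3. The strongest of the list was an Eya1 peak, chr1:14484254-14484895, 174 kb from the gene, with folds of 21.2 in WT and 18.4 in KO. The 3 Mef2a peaks, all upstream, had WT folds of 13.1 to 21.0 and ratios of 0.732 to 0.958. Tcf4, an E protein that pairs with MyoD, had 1 of 4 peaks lower, at a ratio of 0.451. That is too few peaks to read against the 4.63% of all shared intergenic peaks.

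Myod1, the master regulator of the lineage, had 3 peaks. At chr7:46352779-46353521, 23.3 kb from the gene, the fold was 9.91 in WT and 4.95 in KO, a relative ratio of 0.573. Its neighbour chr7:46350174-46350488 had folds of 6.61 and 7.59. Another, chr7:46380665-46380835, lay 1.66 kb past the other end with 4.80 and 3.74. The first 2 belong to a cluster of 4 shared intergenic peaks, chr7:46337454-46353521, whose other 2 peaks were nearer to Otog. It contained no genotype-specific peak, and no share over other clusters is given beside this. In this cluster 3 of 4 ratios were above 1, too few to read beside the median of 1.01 over all shared intergenic peaks.

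Among RUNX and ETS factors, Tle3 had 10 peaks after the 15 of Runx1, Ets2 5, and Ets1 and Runx3 3 each. The highest WT −log10 q of the list, 75.9, was 13.7 kb downstream of Runx3, at chr4:135191283-135192008, with folds of 16.4 in WT and 13.6 in KO, below the 19.2 and 17.3 of the Runx1 peak with the highest fold. The 3 Runx3 peaks had ratios of 0.695 to 0.953 and the 5 Ets2 peaks a median of 1.33, with 1 past 1.5. Runx2 had 1 peak, 101 kb away, at a ratio of 1.66. The peaks of each of these genes are too few to read against the 7.88% and 4.63% of all shared intergenic peaks.

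AP-1 factors drive immediate early and growth responses, and TEAD proteins carry YAP signals. Jun had 4 peaks, Fos and Amotl2 3 each, with ratios from 0.848 to 1.47, and 0 of the 23 peaks of the list passed 1.5 either way, a number of peaks too small to read against the 7.88% and 4.63% of all shared intergenic peaks. The highest WT −log10 q, 92.2, was at chr3:145699363-145699772, 49.6 kb upstream of Ccn1, a YAP target, with folds of 18.2 in WT and 12.7 in KO, while a Jun peak had the highest WT fold, 22.3. Junb, on chromosome 8, had 2 peaks 1.32 and 2.48 kb away with a median fold of 5.29 and a median −log10 q of 51.6, the same mix of low fold and high −log10 q as the Mir23a cluster.

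Among matrix and adhesion genes, Ncam1, a neural cell adhesion molecule of myoblasts, had 9 peaks with ratios of 0.762 to 1.23. Col5a2 had 5, Col5a1 and Sparc 4, and Col6a3, Fn1, Itga5, Lox, Postn and Tnc 3 each. Itga5, a fibronectin receptor subunit, and Sparc, a collagen-binding protein, had the highest densities of these genes at 167 and 126 per Mb, on territories of 18.0 and 31.7 kb. Itga7, an integrin subunit of muscle with 2 peaks, reached 500.0 per Mb on only 4 kb. The highest WT −log10 q, 79.2, was at chr18:52558677-52559354, 29.1 kb from Lox, the collagen cross-linking oxidase, with folds of 18.3 and 12, while a Tnc peak had the highest WT fold, 19.0. Of the 57 peaks 3 passed 1.5 upwards, at Postn (2.15), Tnc (2.00) and Col5a2 (1.59), and 3 downwards, at Col6a2 (0.574), Col6a3 (0.627) and Col1a1 (0.635). That is 5.26% each way, beside 7.88% and 4.63% of all shared intergenic peaks, and the counts are too small to set the list apart.

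In growth factor signalling, Tgfbr2, a receptor of TGF-beta, had 7 peaks, all upstream, and its ligand Tgfb2 had 6. Bmp4 had 5, and Met, the receptor of hepatocyte growth factor, and Smad7, an inhibitor of TGF-beta signals, 3 each. The Tgfbr2 peaks had ratios of 0.595 to 1.08 and included the strongest of the list, chr9:116368925-116369498, with folds of 17.7 and 14.7. The Tgfb2 peaks had ratios of 0.825 to 1.24.

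In the cell cycle list 22 of 33 peaks belonged to Myc and 7 to Ccnd1, cyclin D1, whose ratios were 0.714 to 1.36. Among sarcomere and calcium handling genes, Des, the muscle intermediate filament, had 2 peaks and Myh3, embryonic myosin, 1. The stronger Des peak, chr1:75347363-75347820 at 12.7 kb upstream, had a fold of 11.1 in WT and 10.2 in KO.

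Genes with shared intergenic peaks beside them also had an open promoter more often. A promoter window ran from 250 bases before to 50 after a start, and a shared peak overlapped it in 38.3% of the 17492 protein-coding genes in the RefSeq promoter table. The share was 36.8% for genes with no shared intergenic peak, 46.7% for those with 1, 48.5% for those with 2 to 3 and 49.6% for the 232 with 4 or more. Among the named genes Runx1, Gadd45g, Irf2bp2, Pgrmc2, Klf6, Cited2 and Tle3 had a shared peak at the promoter, while Rasgrp1 and Tns3 had no peak of any list there.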

How the data were processed

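Per the labels, ATAC-seq libraries of WT and Runx1KO C2C12 cells were made in triplicate. The 5 deposited peak lists cover growth medium, and each peak name carries the label of the replicate 1 library. Per the submitters' processing notes the build is mm10. The aligner, the peak caller and its settings, the treatment of the Tn5 offset and the filtering of peaks are not given in the sources used here, and each could move peak edges and folds. The deposited fold is a ratio of signal to background made by the authors, and the deposited −log10 q is the authors' own. Depth is unknown.

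Positions were compared with the RefSeq gene table of GRCm38.p6, the assembly known as mm10. WT and KO peaks were paired at an overlap of at least 1 bp, and territory was counted on a 100 bp grid. The calculations ran in scipy 1.17.1, pandas 2.3.3 and numpy 2.4.6 under Python 3.11.15. The functions were tested on simulated data (5 of 5 checks passed), and all 24900 overlaps matched those of bedtools 2.31.1. Clopper-Pearson intervals cover counting error only.

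The peaks, gene lists and tests were chosen with earlier results of these data known. Named were the 10 peaks with the highest WT −log10 q, the 5 farthest from genes, 3 on each side of the 1 kb limit, the 5 with the highest and the 5 with the lowest ratio among those at or above the WT median −log10 q, the 5 largest clusters, the 3 fullest 1 Mb windows and 10 genes with most peaks (ties kept), listed genes with at least 3 peaks and the strongest peak of each list. The microRNA loci, single peaks of Runx1, Myc and Myod1, and listed genes with fewer peaks were added after their values were seen. Sequence content of the peaks was planned and not computed, because no genome sequence was used here. Some listed genes that met the naming rule are not reported here.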

Additional observations from a re-analysis of the deposited data

How the results depend on the processing

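No paired analysis was possible because each genotype had values from 1 library. Of 73 recomputed values 37 moved by less than their counting error, or by under 1.5 times for counts, and 36 by more; the cause was not tested except where the alternative changes the set of peaks by construction. The share of shared peaks that were intergenic became 35.6% with no distance to gene ends, 17.8% with 5 kb, 32.4% with protein-coding genes only and 21.8% for peaks whose −log10 q reached the WT median. With no distance the median WT fold, −log10 q and width were 10.5, 21.2 and 409 bp, with an overlap of 50% of both peaks 10.4, 20.2 and 387 bp, and with 5 kb the fold was 10.2. The median ratio was 1.03 on −log10 q and 0.947 for the peaks that reached that median.

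The share higher in KO was 21.0% on −log10 q in place of fold, 1.20% of the peaks that reached the WT median −log10 q, 6.5% with the 50% overlap and 1.43% at a ratio of 2. The share lower in KO was 16.6%, 6.33% and 0.596% under the first, the second and the last of these. For peaks over 100 kb from genes, alternatives added after seeing the data gave 33.0% higher in KO on −log10 q, 4.07% of those that reached the median, 10.8% by distance to protein-coding genes and 4.02% at a ratio of 2. The nearer peaks had 20.5%, 1.10%, 7.04% and 1.33% in turn, and 6.21% with the 50% overlap, against 13.9% of the far peaks. The far peaks had the higher share in all 7 alternatives. These re-score peaks of the same 2 libraries, so they add no independent support.

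The median distance was 29.9 kb to protein-coding genes. The share with a neighbour was 16.9% at 5 kb, 45.0% at 20 kb and 41.1% among all shared peaks, and 5 kb gave 460 clusters. Counting genes with an end within 100 kb of a peak gave 8142 of all genes (37.6%), in place of 15% by nearest gene. The lists then had 81.8% for AP-1 and TEAD-YAP, 76.9% for matrix and adhesion and 66.7% for RUNX and ETS factors. Myogenic regulators had 65.2%, growth factor signalling 54.8%, the cell cycle 53.3% (8 genes) and sarcomere genes 44% (11 genes). The sarcomere list was then above the value for all genes. The planned sequence content at 50 bp and over whole peaks was not run. Depth limits every fold, and it is unknown.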

Other observations

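A 10 Mb stretch of chromosome 8 (80 to 90 Mb) paired a low fold with a −log10 q that was high for that fold. This balance of the authors' values was not unique to it. The stretch contains the cluster between Mir181c and Mir23a and the peaks beside Junb, an AP-1 factor. It was chosen after the values were seen. Among 226 windows of 10 Mb with at least 10 shared intergenic peaks, its 51 peaks ranked 221st by median WT fold, at 7.88. Their −log10 q divided by fold had a median of 2.51, the fifth highest of the windows, and in KO it was 3.09, the highest. The 167 shared peaks of the stretch that lie in or near genes had a median quotient of 3.65, again the highest. The neighbouring 70 to 80 Mb ranked sixth in WT and second in KO, at 2.46 and 2.90. Chromosome 19 at 0 to 10 Mb had the same balance, with 27 peaks that ranked 212th by median WT fold, at 8.48. Their median quotient ranked 1st in WT and 3rd in KO, at 2.66 and 2.78. Chromosome 15 at 80 to 90 Mb ranked 3rd in WT, at 2.59, with a median WT fold of 9.25. What sets this balance was not tested, and the background signal of the libraries is not among the values.

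The window with the strongest shared intergenic peaks by both fold and −log10 q was chromosome 15 at 20 to 30 Mb, where 19 peaks had a median fold of 15.5 and −log10 q of 38.6 in WT, and 12.4 and 30.5 in KO. It contains a peak 81.1 kb from Basp1, a membrane protein of growing neurites, that is among the 10 with the highest WT −log10 q.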
